A study of Mus musculus with 5 samples.

Results

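Macrophages are among the first immune cells to settle in the embryonic heart, and they are found in the endocardial cushions and valves as well as in the myocardium. Early ones come from the yolk sac. They take up dying cells and debris through scavenger receptors, digest them in lysosomes, make the C1q component of complement and depend on signals through the CSF1 receptor. Expression of 10 genes that mark these cells was examined in the atrioventricular canal (AVC), the heart region between atria and ventricles in which the valve cushions form. The genes were Ptprc, Csf1r, Cx3cr1, Tyrobp, Fcer1g, C1qa, C1qb, Lyz2, Cd68 and Mrc1, chosen by symbol. All 10 had a row among the 14697 transcripts of the deposited expression table.

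RNA-seq was done on AVCs of C57BL/6 mouse embryos at embryonic day 12.5. Sox9 cKO embryos carried floxed Sox9 alleles (Sox9fl/fl) and 1 copy of Tie2-Cre. WT embryos carried the same floxed alleles without Cre, so the genotypes share the floxed allele, and an effect of Cre itself cannot be told apart from that of the deletion. Tie2-Cre is active in endothelial cells and their descendants, and also in blood lineages, to which macrophages belong. Per the labels' protocols, AVCs were genotyped, checked for the extent of deletion and pooled, and 2 libraries were made from each genotype. The table gives 1 merged value per genotype in nFPKM, the authors' further normalized FPKM (fragments scaled by transcript length and library size), so levels can be compared between genes. With 1 value per genotype there is no replicate spread, no test and no p-value, and differences are described by size alone. The read depth behind each value is unknown.

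Sox9 stood at 14.7 nFPKM in Sox9 cKO and 36.7 nFPKM in WT, the direction that the labels give. Ratios below are log2 of cKO over WT with a pseudocount of 1 nFPKM. They are given relative to the median of the 13793 transcripts that reached 1 nFPKM in cKO or WT, which was -0.11 ("relative log2 ratio"). A value that follows the cKO and WT levels in parentheses is this ratio. The labels name mesenchyme, endothelium and myocardium, and genes of each were well above 1 nFPKM. The mesenchymal genes were Postn (487 nFPKM in cKO and 973 in WT), Twist1 (27.9 and 75.7), Col1a1 (447 and 526) and Pdgfra (79.0 and 130). The endothelial gene Pecam1, chosen after its values were seen, stood at 157 nFPKM in cKO and 132 in WT. The myocardial genes were Tnnt2 (3642 and 4047), Myh6 (1135 and 1717), Myl7 (4040 and 4384) and Actc1 (14777 and 11825). Globin transcripts held 9.65% of the summed nFPKM in cKO and 4.24% in WT, and their part in the macrophage values was not tested.

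The promoters of 5 genes are shown. Of these, Ptprc, Lyz2, C1qb and Mrc1 stood lower in cKO and hold the purine-rich letters AGGAAGT. These letters are a core bound by ETS factors such as PU.1, the master regulator of macrophages. Cd68 stood higher and has none. The 5 were picked by direction and letters together, so their contrast comes from the choice, and a link between letters and direction was not tested. Fcer1g and Cx3cr1 also stood lower and have none, and are not printed. Csf1r and C1qa, the other genes above the all-transcript median, had no promoter entry. Each sequence shown is the 250 bases before the gene's start in RefSeq, build GRCm38.p6, 5′ to 3′ on the strand of the gene. Capitals mark AGGAAGT or its reverse complement in the first 4 and TGANTCA, the AP-1 core, in Cd68. Ptprc has a pair of annotated starts, and the upstream one is shown.
Ptprc, chr1:138175306-138175555, minus strand: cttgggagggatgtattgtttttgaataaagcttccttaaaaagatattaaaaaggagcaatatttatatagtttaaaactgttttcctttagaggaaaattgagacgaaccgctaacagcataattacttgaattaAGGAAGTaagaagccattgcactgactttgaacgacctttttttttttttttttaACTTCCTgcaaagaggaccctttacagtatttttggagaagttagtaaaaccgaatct
Lyz2, chr10:117282273-117282522, minus strand: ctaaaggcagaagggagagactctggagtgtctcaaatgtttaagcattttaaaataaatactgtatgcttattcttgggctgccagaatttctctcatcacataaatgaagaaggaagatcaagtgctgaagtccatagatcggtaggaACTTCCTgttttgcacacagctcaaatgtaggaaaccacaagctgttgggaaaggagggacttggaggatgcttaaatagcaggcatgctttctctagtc
C1qb, chr4:136886201-136886450, minus strand: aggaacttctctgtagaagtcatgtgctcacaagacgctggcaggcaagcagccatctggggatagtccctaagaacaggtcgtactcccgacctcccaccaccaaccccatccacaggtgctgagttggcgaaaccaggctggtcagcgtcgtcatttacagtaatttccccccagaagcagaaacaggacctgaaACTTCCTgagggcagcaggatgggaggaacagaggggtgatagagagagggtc
Mrc1, chr2:14229164-14229413, plus strand: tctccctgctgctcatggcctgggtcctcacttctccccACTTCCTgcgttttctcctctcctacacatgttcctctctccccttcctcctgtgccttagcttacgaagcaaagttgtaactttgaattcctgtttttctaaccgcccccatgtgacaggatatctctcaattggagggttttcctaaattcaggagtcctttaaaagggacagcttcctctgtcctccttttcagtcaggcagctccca
Cd68, chr11:69666171-69666420, minus strand: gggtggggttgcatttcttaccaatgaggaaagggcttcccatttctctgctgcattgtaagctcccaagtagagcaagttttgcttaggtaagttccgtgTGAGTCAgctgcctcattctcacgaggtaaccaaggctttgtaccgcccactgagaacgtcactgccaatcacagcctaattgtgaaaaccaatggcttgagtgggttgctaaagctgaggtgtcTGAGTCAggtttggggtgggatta

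The table of promoters held 8 entries for 7 of the 10 genes. Csf1r, Tyrobp and C1qa had none. AGGAAGT, searched on both strands, was found in 4 of these 7 genes. The Ptprc sequence holds it 113 and 58 bases before the start, Lyz2 at 100, C1qb at 53 and Mrc1 at 211. Over all 32851 promoter entries of the same length, 7.69% held it. The longer GAGGAAGT, which contains it, was in none of the 7 and in 2.44% of all entries. TGANTCA was in Cd68 alone among the 7, at 149 and 24 bases before the start, and in 6.75% of all entries. These letters were chosen with the promoters in view, and a match is a description of sequence and not a site of binding. Spi1 (in the table as Sfpi1), which encodes PU.1 and was chosen after its values were seen, stood at 3.25 nFPKM in cKO and 2.70 in WT, a relative log2 ratio of 0.30.

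The macrophage genes were of modest abundance, and 7 of the 10 stood lower in cKO by small amounts relative to the all-transcript median (8 without centring, Csf1r included). Their summed level was 162 nFPKM in cKO and 192 nFPKM in WT, or 0.0169% and 0.0199% of all nFPKM. The median of the 10 relative log2 ratios was -0.17. The 7 genes were below the all-transcript median, where 50.0% of all transcripts lay by construction, and 3 were above it. None reached 2-fold, a size met by 1.51% of all transcripts (0.834% higher in cKO and 0.674% lower), and by 1.57% without centring, where none of the 10 reached it either. At 1.2-fold, 4 of 10 were past the size, against 27.5% of all transcripts. Of these 4, Cd68 was higher, against 14.4% of all transcripts, and Ptprc, Lyz2 and Tyrobp were lower, against 13.1%. Lyz2 and Tyrobp lay at the edge of this size, and the count depended on the scale. Without centring 7 of 10 were past 1.2-fold, 6 of them lower, against 23.8% of all transcripts lower, and with a pseudocount of 5 only Lyz2 and Cd68 were. Whether macrophage RNA differed between the genotypes at all could not be tested with 1 value each. In pooled tissue, a difference in macrophage number and one in RNA per macrophage could not be told apart.

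**Figure D1:**
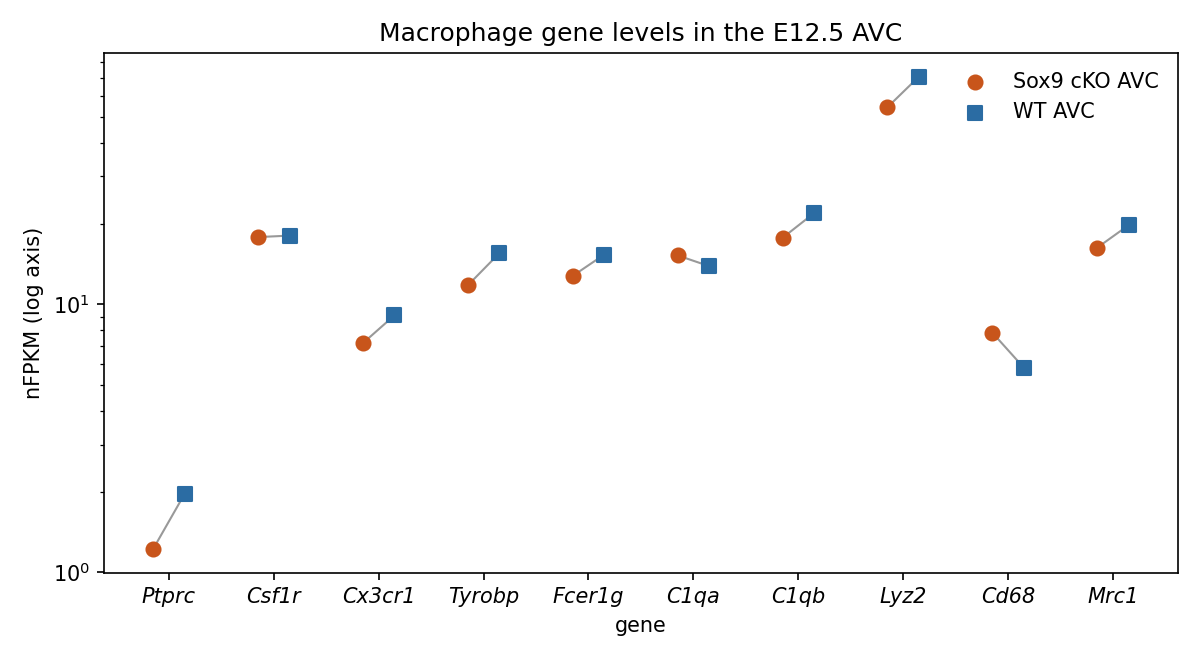
Level of each macrophage gene in nFPKM (log axis) in Sox9 cKO AVC (circles) and WT AVC (squares), 1 merged value per genotype, joined by a line. The levels run between Ptprc (1.22 in cKO and 1.96 in WT) and Lyz2 (54.3 in cKO and 70.6 in WT), and Cd68 and C1qa are the 2 genes with the higher value in cKO.

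Ptprc and Cx3cr1 stood lower in cKO and Csf1r was close to the median of all transcripts. Ptprc encodes CD45, a membrane tyrosine phosphatase of leukocytes and their precursors. Its transcript (NM_001111316) stood at 1.22 nFPKM in cKO and 1.96 in WT, a relative log2 ratio of -0.31. It was the least abundant of the 10 in both genotypes, and 39.2% of transcripts with a mean between 1 and 3 nFPKM lay at least as far from the median. Its ratio also depended most on the pseudocount, at -0.53 with 0.1 and -0.08 with 5. Csf1r encodes the receptor for CSF1 and IL-34, on which most tissue macrophages depend. It stood at 17.8 nFPKM in cKO and 18.0 in WT, a relative log2 ratio of 0.09 that became -0.02 without centring. Of all transcripts between 10 and 30 nFPKM, 68.0% lay at least as far from the median. Cx3cr1, the receptor for the chemokine fractalkine, is a gene of resident macrophages and microglia. It stood at 7.16 nFPKM in cKO and 9.09 in WT (-0.20), and 51.1% of transcripts between 3 and 10 nFPKM lay as far out.

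The ligands of these receptors, chosen with their values known, were near or above the median. Csf1 stood at 17.9 nFPKM in cKO and 19.8 in WT, and its relative log2 ratio was -0.03. Cx3cl1, which encodes fractalkine, stood at 10.3 nFPKM in cKO and 9.07 in WT (0.27). Of the 10 listed growth factor, chemokine and receptor genes of myeloid cells, 8 had a row and 7 passed the filter of 1 nFPKM, with none past 2-fold, 5 above the median of all transcripts and 2 below it. Csf2rb, a shared subunit of cytokine receptors, was highest (3.86 nFPKM in cKO and 2.39 in WT, 0.63). Kit, the receptor for stem cell factor, and Cxcl12, a chemokine for progenitor cells, had relative log2 ratios of 0.36 and 0.17.

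Tyrobp and Fcer1g encode the small adaptors DAP12 and the Fc receptor gamma chain, which carry signals of many activating receptors through an ITAM motif in their tails. Tyrobp stood at 11.8 nFPKM in cKO and 15.5 in WT, a relative log2 ratio of -0.26, just past 1.2-fold. Fcer1g stood at 12.8 nFPKM in cKO and 15.3 in WT (-0.14). The 2 adaptors were close to each other in level, with a Tyrobp to Fcer1g ratio of 0.92 in cKO and 1.01 in WT. Among transcripts of like level, 24.9% lay as far from the median as Tyrobp and 52.1% as far as Fcer1g.

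The partners of the adaptors lay on both sides of the median. Of 20 listed genes for receptors and kinases of this pathway, 17 had a row and 14 passed the filter, 10 above and 4 below the median of all transcripts, with none past 2-fold and a median of 0.05. The phosphatase gene Ptpn6 (4.27 nFPKM in cKO and 3.34 in WT, 0.39) and the phospholipase gene Plcg2 (14.0 and 11.9, 0.33) were highest. Clec7a, the receptor dectin-1 (-0.25), and Sirpa, the receptor for CD47 (23.6 and 29.6, -0.21), were lowest. Trem2, a partner of DAP12 chosen after its values were seen, stood at 2.20 nFPKM in cKO and 2.18 in WT (0.12).

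C1qa and C1qb encode chains of C1q, which starts the classical complement pathway and tags debris, and the third chain is encoded by C1qc beside them. C1qa stood at 15.2 nFPKM in cKO and 13.9 in WT, a relative log2 ratio of 0.23. C1qb stood at 17.7 nFPKM in cKO and 21.9 in WT (-0.19). C1qc, which is not one of the 10 genes, stood at 14.1 nFPKM in cKO and 17.2 in WT (-0.16). The chains, which 1 protein contains together, lay on both sides of the median. The C1qb to C1qa ratio was 1.16 in cKO and 1.58 in WT, while the C1qb to C1qc ratio was 1.25 and 1.27. The summed C1q level was 47.0 nFPKM in cKO and 52.9 in WT. The middle 90% of transcripts between 10 and 30 nFPKM ran from -0.42 to 0.44, and all 3 chains lay inside it.

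Other complement genes were mostly above the median of all transcripts. Of 18 listed, C1qc among them, 11 had a row and 10 passed the filter, 7 above and 3 below, with none past 2-fold. Without centring 5 were higher in cKO and 5 lower. Cd59a, which restrains complement, was highest at 40.2 nFPKM in cKO and 28.5 in WT (0.59). C3, the central component, was lowest at 3.45 nFPKM in cKO and 5.64 in WT (-0.47). C5ar1, the receptor for C5a, had a relative log2 ratio of 0.28.

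Lyz2 and Cd68 mark the digestive side of the macrophage. Lyz2, lysozyme M, was the most abundant of the 10 and held 33.5% of their summed level in cKO and 36.8% in WT. It stood at 54.3 nFPKM in cKO and 70.6 in WT, a relative log2 ratio of -0.27, which 16.4% of transcripts between 30 and 100 nFPKM reached or passed. Its close copy Lyz1 lies next to it in RefSeq and stood at 19.3 nFPKM in cKO and 18.7 in WT (0.16). Reads can be divided between these copies, so the 2 values are uncertain. Their sum was 73.6 nFPKM in cKO and 89.2 in WT, a relative log2 ratio of -0.17. Without Lyz2 the summed level of the other 9 genes was 108 nFPKM in cKO and 121 in WT, and the relative log2 ratio of the sum was -0.06 against -0.14 with it, an alternative chosen after seeing the data.

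Cd68, a glycoprotein of late endosomes and lysosomes, had the relative log2 ratio furthest from 0 among the 10, on the higher side. Without centring Ptprc was further from 0, at -0.41 against 0.38 for Cd68, and in nFPKM Lyz2 differed most. Cd68 stood at 7.84 nFPKM in cKO and 5.80 in WT, a relative log2 ratio of 0.48, and 16.5% of transcripts between 3 and 10 nFPKM lay at least as far out. It lies between Mpdu1 and Eif4a1 in RefSeq. Mpdu1 stood at 52.9 nFPKM in cKO and 62.5 in WT (-0.13), and Eif4a1 at 125 and 122 (0.14). Senp3, listed with these neighbours, had a relative log2 ratio of -0.19. A share of reads from these far more abundant genes was not tested. Macrophages are not the only cells that make lysosomes, and 24 of 25 listed lysosomal genes had a row and passed the filter. Their median was 0.08, 18 lay above the median of all transcripts and 6 below, and none was past 2-fold. Ctsa, a protective protein of lysosomal enzymes, was highest (116 nFPKM in cKO and 97.0 in WT, 0.36), followed by the hydrolase gene Gla (0.27), while Tfeb, a transcription factor of lysosome genes, was lowest (15.3 and 20.2, -0.27).

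Mrc1 encodes the mannose receptor CD206, an endocytic receptor of resident macrophages that some endothelium also makes. It stood at 16.3 nFPKM in cKO and 19.7 in WT, a relative log2 ratio of -0.16, and 47.3% of transcripts of like level lay as far out. Other listed genes of scavenging and phagocytosis, among them the secreted ligands Gas6 (0.05) and Mfge8 (0.14), were mostly above the median of all transcripts. Of 18 listed, 13 had a row and 12 passed the filter, 9 above and 3 below, with none past 2-fold. Cd93 (158 nFPKM in cKO and 118 in WT, 0.53) and Stab1 (72.5 and 57.1, 0.45), which endothelium also makes, were high with Msr1, a scavenger receptor of macrophages (3.18 and 2.13, 0.52). Megf10, a receptor for dying cells, was lowest (1.53 and 2.26, -0.26). Endothelial markers stood higher in the same samples, with a median of 0.24 over 12 genes, 10 above the median. Their part in the values of Mrc1 and Stab1 was not tested. Among them Emcn (0.82), Plvap (0.70), Npr3 (0.43) and Cldn5 (-0.59) were furthest from the median.

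**Figure D2:**
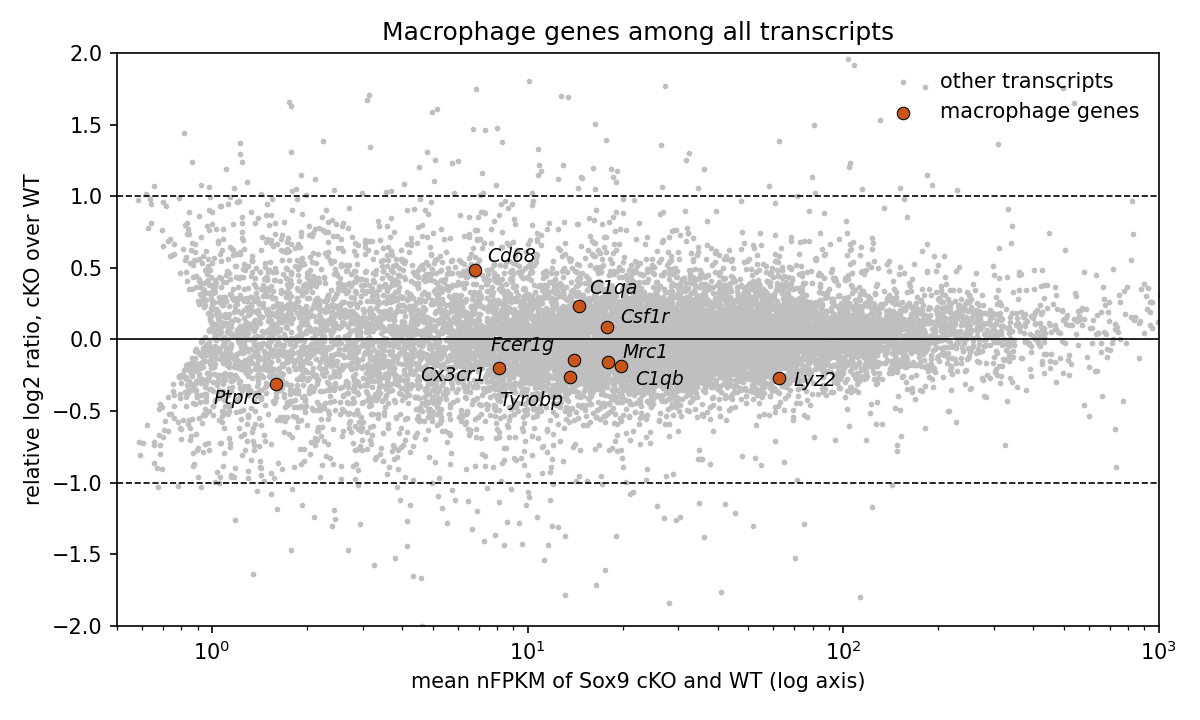
Relative log2 ratio of cKO over WT against mean nFPKM (log axis) for all transcripts that passed the filter (grey) and the 10 macrophage genes (orange). Dashed lines mark 2-fold, transcripts beyond the axes are not drawn, and all 10 genes lie inside the dashed lines among transcripts of like level.

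Lyz2 and Ptprc held the ends of the order of levels in both genotypes, and Csf1r and C1qa each stood 2 places higher in cKO than in WT. In cKO the order ran from Lyz2 through Csf1r, C1qb, Mrc1, C1qa, Fcer1g, Tyrobp, Cd68 and Cx3cr1 to Ptprc. In WT the order ran from Lyz2 through C1qb, Mrc1, Csf1r, Tyrobp, Fcer1g, C1qa, Cx3cr1 and Cd68 to Ptprc. Levels of Lyz2 lay above those of 78.5% of all transcripts in cKO and 83.2% in WT, and levels of Ptprc above those of 10.7% and 14.2%. The 8 genes between them lay close together, at 7.16 to 17.8 nFPKM in cKO and 5.80 to 21.9 in WT. With no replicate spread, neighbours in this middle group cannot be ranked with an error. The endothelial gene Pecam1 stood at 11.2 times the middle macrophage level in cKO and 8.58 times in WT.

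Further macrophage genes were mostly below the median of all transcripts. Of 18 further macrophage genes, 16 had a row and 15 passed the filter, 4 above and 11 below, with a median of -0.05. Of the 15, 1 was past 1.2-fold in the higher direction, against 14.4% of all transcripts, and 5 in the lower, against 13.1%. Among these 5, Gpnmb and Ms4a7 (0.78 nFPKM in cKO and 1.38 in WT) reached 1 nFPKM only in WT. Gpnmb, a glycoprotein of phagocytes and pigment cells (0.88 nFPKM in cKO and 2.76 in WT, -0.89), and Ly86, the co-receptor MD-1 (3.52 and 7.87, -0.87), were lowest. Fcgrt, the neonatal Fc receptor (19.3 and 28.4), had a relative log2 ratio of -0.43, and Cd83 (1.85 and 1.30) one of 0.42. Adgre1 (in the table as Emr1), an adhesion receptor that marks mouse macrophages and was chosen after its values were seen, stood at 5.96 nFPKM in cKO and 6.55 in WT (-0.01). None of the 15 was past 2-fold on the relative scale, which uses a pseudocount of 1 nFPKM. In nFPKM without a pseudocount, the fold of cKO over WT was 0.32 for Gpnmb and 0.45 for Ly86, both past 2-fold. The authors' log2 fold change was -1.11 for Gpnmb and -0.95 for Ly86. Dct, a melanin synthesis gene of pigment cells chosen after its values were seen, stood at 1.12 nFPKM in cKO and 8.17 in WT (-2.01), and the part of pigment cells in the Gpnmb value was not tested.

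Among 11 genes shared with microglia, the macrophages of the brain, 10 had a row and passed, 4 above and 6 below, with a median of -0.01 and none past 2-fold. P2ry13, a nucleotide receptor (1.37 nFPKM in cKO and 3.07 in WT, -0.67), Olfml3 (43.8 and 68.2, -0.52) and Tmem119 (8.20 and 12.5, -0.45) were lowest, and the transcription factor Sall1 was highest (18.4 and 12.6, 0.62). Without a pseudocount the fold of P2ry13 in nFPKM was 0.45, past 2-fold. Olfml3, Tmem119 and Sall1 are made by other embryonic tissues as well.

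Pan-leukocyte genes lay on both sides of the median of all transcripts. All 21 listed had a row and 20 passed the filter, 13 above and 7 below, with a median of 0.13 and none past 2-fold. Without centring 11 were higher in cKO and 9 lower. Relative to the median, 7 of the 20 were past 1.2-fold in the higher direction, against 14.4% of all transcripts. In the lower direction it was 1, against 13.1%, and this gene, Cd37, reached 1 nFPKM only in WT. Ncf4, a subunit of the phagocyte NADPH oxidase, stood at 4.18 nFPKM in cKO and 3.14 in WT (0.43). Arhgdib, a regulator of small GTPases, stood at 112 nFPKM in cKO and 90.5 in WT (0.42), and Ptpn6, also on this list, had a relative log2 ratio of 0.39. Cd37, a membrane protein of leukocytes chosen after its values were seen, was lowest of those that passed, at 0.89 nFPKM in cKO and 1.57 in WT (-0.34). Transcription factors of the lineage lay on both sides, 8 above and 5 below of 13 that passed, of 15 listed and 14 with a row. Ikzf1 (3.16 nFPKM in cKO and 1.87 in WT, 0.64) and Irf5 (9.45 and 6.86, 0.52) were highest, and Nr1h3 (1.09 and 2.28, -0.54) was lowest. No listed factor that passed was past 2-fold on the relative scale, while the fold of Nr1h3 in nFPKM without a pseudocount was 0.48.

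Taking the 5 lists of other macrophage genes, microglial genes, adaptor partners, transcription factors and pan-leukocyte genes together, with each gene once and the 10 left out, 71 passed the filter. Of these 38 lay above the median of all transcripts and 33 below, with a median of 0.02. The 10 genes had 3 above and 7 below. Without centring, the medians of these 71 genes and of the adaptor partners, transcription factors and lysosomal genes would lie below 0, while that of the pan-leukocyte genes would stay above it. The difference between these splits was not tested, since genes are not replicates.

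**Figure D3:**
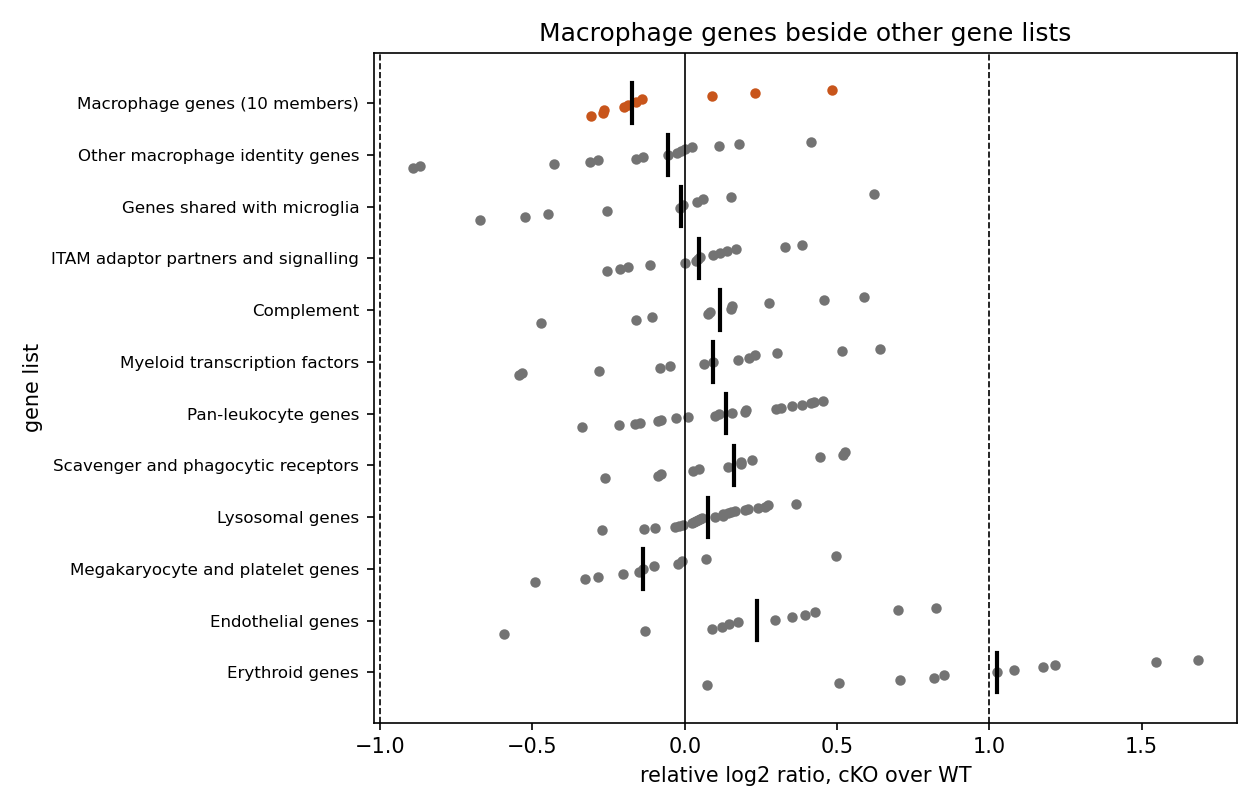
Relative log2 ratio of cKO over WT for each gene that passed the filter (points) in the 10 macrophage genes (orange) and in 11 other lists (grey), with the list's median as a vertical bar and 2-fold as dashed lines. The macrophage genes centre on -0.17, the pan-leukocyte genes on 0.13 and the erythroid genes on 1.03.

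Markers of other blood cells were examined in the same values. All 11 megakaryocyte and platelet genes passed the filter, 2 above and 9 below the median of all transcripts, with a median of -0.14 and a summed level of 176 nFPKM in cKO and 208 in WT. Pf4 (59.2 nFPKM in cKO and 70.2 in WT, -0.14) is counted here and also among the further macrophage genes above, so these lists are not separate. The relative log2 ratio was -0.33 and -0.29 for the platelet genes Ppbp and Gp9, and 0.50 for Gp6, a collagen receptor of platelets. Erythroid genes went the other way, with 11 of 11 above the median, a median of 1.03 and a range from 0.07 to 1.69. Past 2-fold were the embryonic globin genes Hbb-bh1 (1.69), Hba-x (1.55) and Hbb-y (1.21), with Alas2 of heme synthesis (1.08) and Rhag of the red cell membrane (1.03) among the others. Of 14 monocyte and neutrophil genes, 7 had a row and 4 passed. S100a8, a calcium-binding protein of neutrophils, stood at 1.29 nFPKM in cKO and 3.85 in WT, a relative log2 ratio of -0.98 that was past 2-fold without centring. The relative log2 ratio was -0.35 for S100a9, 0.63 for Mpo (1.13 nFPKM in cKO and 0.48 in WT) and 0.13 for Plac8. Mpo reached 1 nFPKM only in cKO. Of 9 mast cell genes, 5 had a row and passed. Mcpt4 (0.97 nFPKM in cKO and 2.87 in WT) had a relative log2 ratio of -0.87, and Cpa3 (0.56 and 1.15) one of -0.35. Both reached 1 nFPKM only in WT. The ratio was 0.36 for Kit and -0.05 for Gata2. Hdc, chosen after its values were seen, stood at 4.47 nFPKM in cKO and 4.86 in WT (0.01). Of 12 lymphoid genes, 1 had a row, Cd79b at 1.12 nFPKM in cKO and 0.87 in WT (0.29).

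Among inflammatory genes, Ccl2 was past 2-fold. Ccl2, a chemokine that draws monocytes, stood at 10.8 nFPKM in cKO and 5.02 in WT, a relative log2 ratio of 1.08. Without centring but with the pseudocount, the log2 ratio was 0.97, just under 2-fold. The fold in nFPKM without a pseudocount was 2.16. Ccl7, a relative of Ccl2, stood at 2.97 nFPKM in cKO and 1.68 in WT (0.68). Igf1, a growth factor that macrophages and mesenchyme make, stood at 43.9 nFPKM in cKO and 86.3 in WT (-0.85), and Tgfb1 had a relative log2 ratio of 0.16. Of 18 listed genes, 9 had a row and 5 passed. Many cell types make these 4, and the values are not divided between cells.

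**Figure D4:**
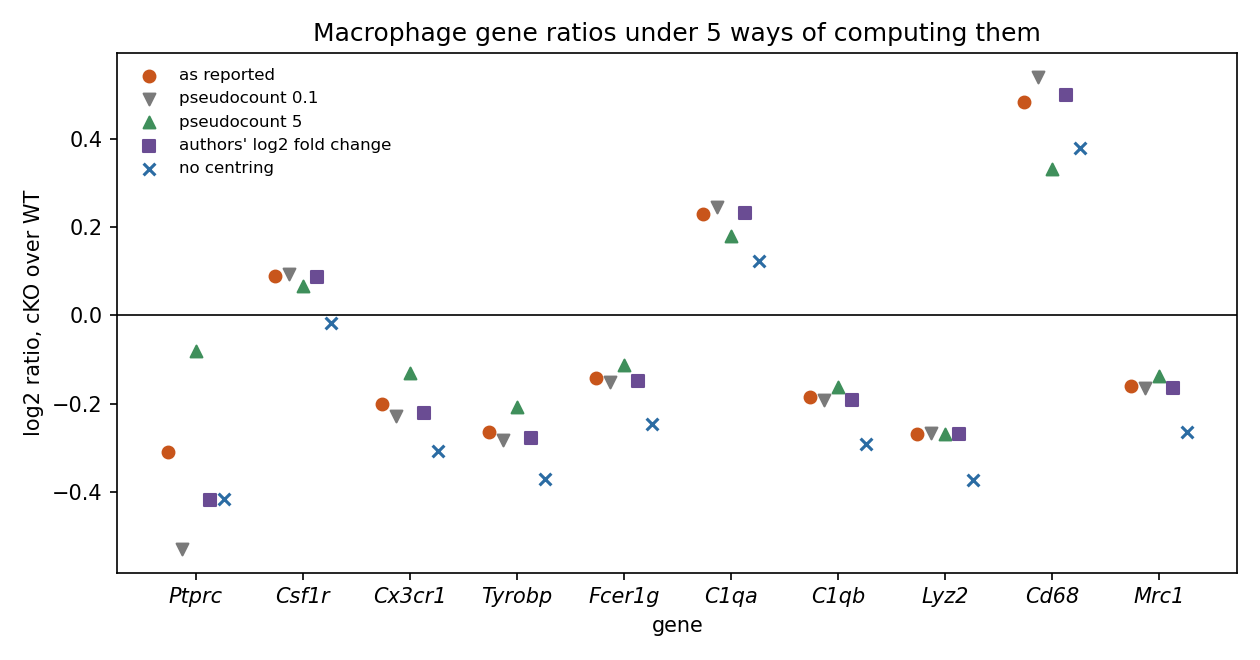
Log2 ratio of cKO over WT for each macrophage gene as reported (relative to the all-transcript median), with a pseudocount of 0.1 or 5, from the authors' deposited table, and without centring. The 7 genes below 0 and the 2 genes C1qa and Cd68 above 0 keep their side in all 5, and Csf1r is at 0.09 as reported and at -0.02 without centring.

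Genes that lie next to the 10 in RefSeq were examined because reads can be shared between neighbours. Hcst lies beside Tyrobp and stood at 0.64 nFPKM in cKO and 0.49 in WT, under the filter. Nfkbid, listed with it, stood at 0.56 and 1.94 (-0.81). The relative log2 ratio was 0.02 for Arhgap30, listed with Fcer1g, -0.10 for Hmgxb3 beside Csf1r, and 0.35 for Csrnp1, listed with Cx3cr1. In RefSeq, Mir511 overlaps Mrc1, Gm33858 overlaps Cx3cr1, and Mir6983 and Gm52352 overlap Csf1r. The sources used here do not say whether counting used strand, so reads of overlapping genes cannot be told apart.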

How the data were processed

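Gene expression in AVCs was compared between 2 samples, Sox9 cKO and WT, grouped by genotype label. Per the file headers, the authors deposited 1 normalized FPKM value (nFPKM) per transcript and genotype, merged over duplicate libraries, and a log2 fold change without a p-value. TopHat2, Cufflinks and edgeR, without versions, and build mm9 are listed in the submitters' processing notes. The sources used here do not describe the further normalization, and the depth is unknown.

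The log2 ratio of cKO to WT used a pseudocount of 1 nFPKM, which understates the ratio of low genes, and was centred on the median of the 13793 transcripts that reached 1 nFPKM in cKO or WT (904 did not). All sizes of 2-fold and 1.2-fold refer to this relative ratio unless stated. No test was possible. Shares of transcripts at least as far from the median were taken within ranges of mean level.

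The 10 genes, the 19 companion lists and the rules were chosen with earlier results of these data known. In each list the text names genes past 2-fold and up to 4 with the largest absolute ratio, and all genes of the AVC and neighbour lists. A few genes that this rule names are not reported here. Promoter sequences and gene order came from RefSeq (GRCm38.p6), which is not the build of the data. SOX9 peak lists were not used, since no annotation of mm9 was at hand. Python 3.11.15, numpy 2.4.6, pandas 2.3.3 and matplotlib 3.10.9 were used. The ratio was checked on simulated data without noise, with changes set only in more abundant transcripts. That checks the code and not the ratios of low genes.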

Additional observations from a re-analysis of the deposited data

How the results depend on the processing

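The number of macrophage genes past 2-fold was 0 with pseudocounts of 0.1 and 5, in the authors' deposited table, without centring, without the filter and with a filter of 3 nFPKM. At 1.2-fold it was 4, and also 4 with a pseudocount of 0.1, in the authors' deposited table and without the filter, but 7 without centring, 2 with a pseudocount of 5 and 3 with the filter of 3 nFPKM, alternatives for this count chosen after seeing the data. The fold change column of the authors' deposited table exceeds the ratio of its own nFPKM columns by 0.11 on the log2 scale (median of 1469 transcripts with at least 100 nFPKM in both), about the centring shift, so it is close to the relative ratio and is no independent scale. The median relative log2 ratio of the 10 genes was -0.17 and lay between -0.12 (pseudocount of 5) and -0.19 (without Cd68), except that it was -0.28 without centring. The ratio of their summed levels was -0.14 on the relative log2 scale, -0.24 without centring, and -0.06 without Lyz2. Without centring all 10 values shift by the all-transcript median, and Csf1r alone changed sign. No other of the 10 changed sign under any alternative tried. The filter of 3 nFPKM left out Ptprc, and the pseudocount mattered most for it. No paired analysis was possible because the table holds 1 merged value per genotype, and for the same reason no library could be left out. The unknown depth and the lack of replicate values limit every difference given here.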
